A study of Homo sapiens with 12 samples.

Results

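Genes of programmed cell death were followed in 4 lines of MIA PaCa-2, a pancreatic carcinoma cell line. They are XAF1, the inhibitor of apoptosis genes XIAP, BIRC2 and BIRC3, the caspase genes CASP1, CASP4 and CASP8, and GSDMD and MLKL, whose products open membranes. The members are the rows of the deposited table that carry these symbols, 9 of 63086 genes. They were selected with results of these same values known, so that the levels in these libraries chose them. Their levels and the differences between lines are therefore given as a description, with no p-value. How many of them passed the threshold of the fit over all genes is counted beside the share or number of all genes that did, and nothing is read from it. Tests are given for other genes of the same pathways.

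The study edited TIMP1, which encodes a secreted inhibitor of metalloproteinases, to test whether it causes suppression of natural killer cells by the cancer cells. Besides assays on natural killer cells, it used RNA sequencing to find the transcripts whose levels depend on TIMP1. RNA was sequenced from 4 lines with 3 biological replicates each, 12 libraries in all. WT is the line without editing. CRISPR Control went through CRISPR-Cas9, which cuts DNA at a guide RNA's target, and carries a silent point mutation that leaves the protein sequence as it was. TIMP1 KO 1 and TIMP1 KO 2 are knockout clones edited in exon 4. WT and CRISPR Control are called competent and both KO lines deficient. Each edited line is 1 clone or 1 line, so an effect of the edit and a property of the clone cannot be told apart. All lines were grown in the same medium, none was given an inducer of cell death, and death itself was not measured in these data.

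Apoptosis is carried out by caspases, proteases held in check by inhibitor of apoptosis proteins (IAPs). XIAP blocks caspases directly. cIAP1 and cIAP2, the products of BIRC2 and BIRC3, are ubiquitin ligases of tumour necrosis factor receptor complexes. XAF1 binds XIAP and opposes it, and is a textbook interferon-stimulated gene. Caspase-8 starts apoptosis below death receptors and restrains necroptosis, a lytic death in which the kinase RIPK3 phosphorylates MLKL and MLKL breaches the plasma membrane. Caspase-1, activated in inflammasomes, and caspase-4, which senses bacterial lipopolysaccharide in the cytosol, cleave gasdermin D, the product of GSDMD, whose pores cause the lytic death called pyroptosis.

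Values are given as normalised counts, that is, reads assigned to a gene after scaling by the size factor of the library. Libraries held 26908701 to 36093563 reads in genes, and replicates of a line correlated with r from 0.990 to 0.993 across genes. TIMP1 itself had 3290.2 to 3837 normalised counts in WT and 2285 to 2959 in CRISPR Control, with 1562 to 1624 in KO 1 and 1136 to 1192 in KO 2. By limma its log2 fold change against WT was -1.15 (SE 0.09) in KO 1, -1.61 in KO 2 and -0.41 in CRISPR Control. Defining epithelial and mesenchymal markers of the line were present, with 4 of 4 and 3 of 3 at 10 or more in every line. CRISPR Control stood apart by its epithelial sum of 55010.2 to 71210.1, set against 174036 to 223275 in the other lines. The epithelial sum came mainly from the keratins KRT8, KRT18 and KRT19. EPCAM, also in that list, averaged 1875 in CRISPR Control and 1890 in WT, with 2036 in KO 1 and 1299 in KO 2. The mesenchymal sum, mainly VIM, was lowest in CRISPR Control too, at 53285 to 64874, with 71208 to 96508 in the other lines. CDH2, of the mesenchymal list, averaged 1110 in CRISPR Control and 571 in WT, with 93.7 in KO 1 and 384 in KO 2. The leukocyte list summed to 43.0 to 58.1 in WT and 45.1 to 47.4 in CRISPR Control, with 79.5 to 99.4 in KO 1 and 165 to 181 in KO 2. That sum came mainly from CD14, the 1 of its 8 genes with a mean of 10 or more. The means of PTPRC, the pan-leukocyte marker, were 0.360 to 5.17. The fibroblast list, mainly THY1 with DCN at 0 outside CRISPR Control, summed to 968 to 1069.6 in WT, 1025 to 1116 in KO 1, 1635 to 1783 in KO 2 and 1841 to 2188 in CRISPR Control. The endothelial list, mainly KDR, summed to 133 to 145 in WT, 97.9 to 109 in KO 1, 231 to 249.9 in KO 2 and 35.2 to 39.7 in CRISPR Control. These sums differed between lines as several members below did, and their part in the members' levels was not tested. In bulk RNA, a larger share of expressing cells and more RNA per cell cannot be told apart.

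**Figure D1:**
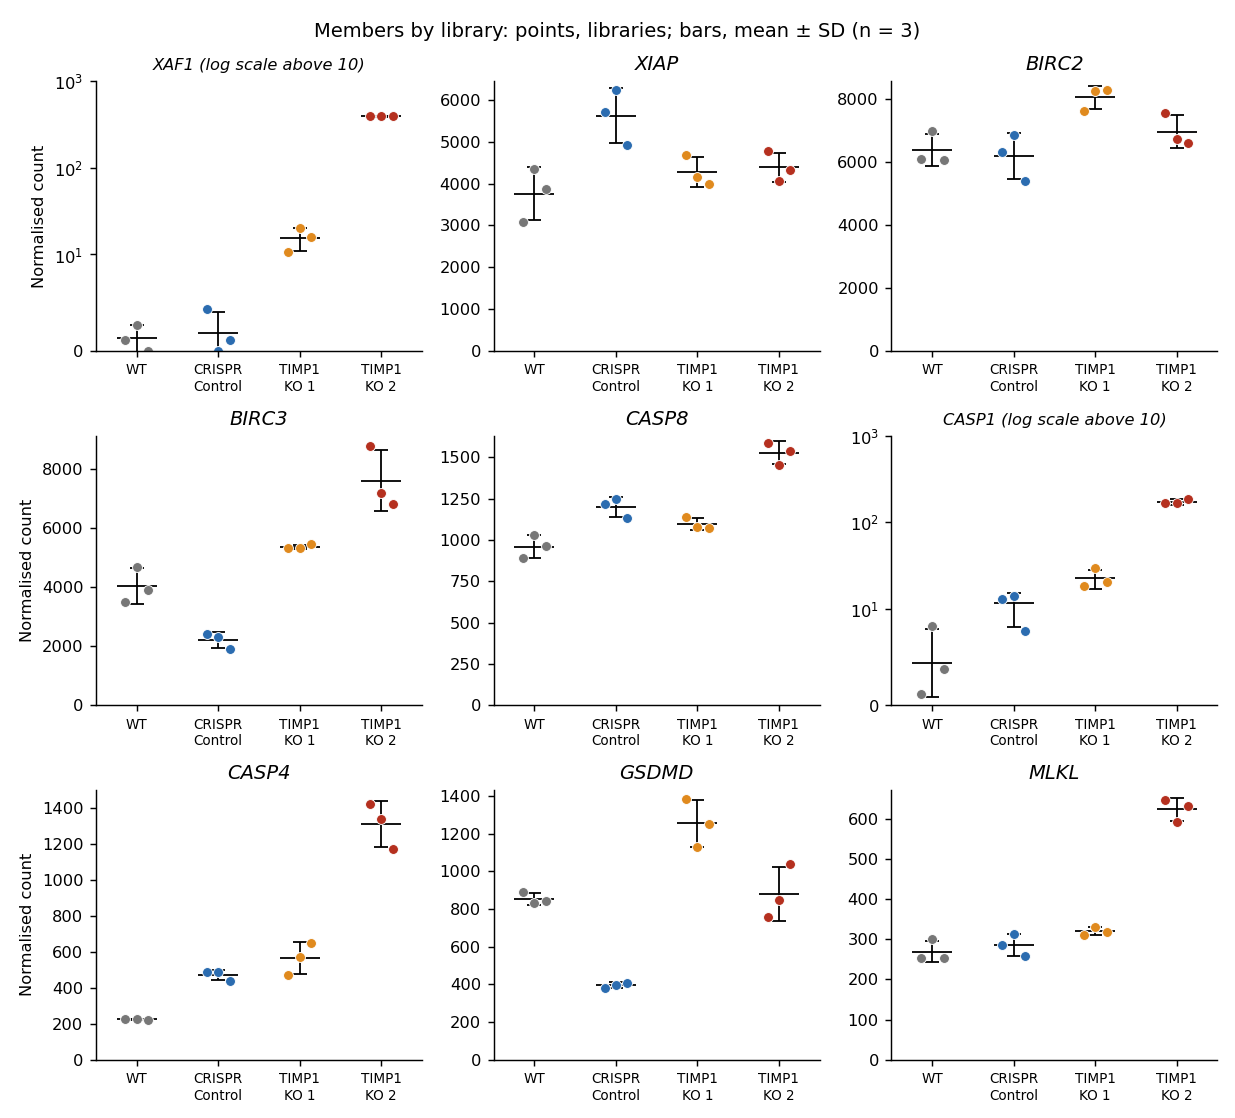
Normalised count of each of the 9 genes in every library (points), with the mean and SD of each line (n = 3); axes start at 0, and those of XAF1 and CASP1 are logarithmic above 10. XAF1, CASP1, CASP4, CASP8, BIRC3 and MLKL have their highest points in TIMP1 KO 2, while BIRC2 and GSDMD are highest in TIMP1 KO 1 and XIAP in CRISPR Control.

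Short stretches around matches in the windows of 5 members are shown, because their levels were higher in KO 2 than in WT and their windows hold letters of known motifs. They are RefSeq sequences of GRCh38.p14, read 5′ to 3′ on the strand of the gene. RefSeq windows of 250 bases before to 50 bases after a start were given for 7 of the 9 members, 13 windows in all. The capitals in all but the last line mark the letters AAANNGAAA or their reverse complement, the inner part of the interferon-stimulated response element. This motif was chosen after the windows had been read, and it was present in 10.48% of all 35116 windows.

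XAF1, chr17:6756005-6756033, plus strand: atcggaaaacTTTCAGTTTtgtttccttg
CASP4, chr11:104968567-104968595, minus strand: catagtttacTTTCATTTTtgactctgag
CASP4, chr11:104968730-104968758, minus strand: attttgtcatTTTCATTTTtttcccccaa
MLKL, chr16:74701083-74701111, minus strand: tctctccaacTTTCAGTTTttctctaaac
CASP8, chr2:201233450-201233478, plus strand: gagtttttggTTTCTGTTTcaccttgtgt
CASP8, chr2:201257795-201257823, plus strand: tgatcaaggcAAAGGGAAActtcctattc
BIRC3, chr11:102317275-102317303, plus strand: tttgggtcatGGAAATCCCcgagtgggtt

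In the last line the capitals mark a match, on the opposite strand, to GGGNNTTCC, the letters bound by NF-kB dimers. Positions are given relative to the start site, with matches counted from their first base. The XAF1 match is at -31 from the start at 6756046, and XAF1 and MLKL share the same 9 letters. The CASP4 matches are at -11 and -174 from the start at 104968574, and both have the same 9 letters. The MLKL match is at -239 from 74700862. Those of CASP8 are at -3 from 201233463, across the start, and at -230 from a further start at 201258035. XAF1 has a further RefSeq start at 6755447 whose window held no match. BIRC3 also had a match to AAANNGAAA, at -117. The NF-kB match of BIRC3 is at -199 from 102317484, in the following upstream stretch, where the capitals again mark that match.

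BIRC3, chr11:102317234-102317483, plus strand: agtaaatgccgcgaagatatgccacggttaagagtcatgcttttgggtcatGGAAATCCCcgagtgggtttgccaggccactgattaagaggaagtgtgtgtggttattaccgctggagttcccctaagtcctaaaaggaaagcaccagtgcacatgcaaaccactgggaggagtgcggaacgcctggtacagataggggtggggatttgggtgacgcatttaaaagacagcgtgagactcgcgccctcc

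Other letters searched on both strands were GAAANNGAA, the core read by interferon regulatory factors, which can share letters with AAANNGAAA and was in 8.11% of all windows, and TTCNNNGAA, read by STAT dimers, in 7.66%. GGGNNTTCC was in 6.58%. A CASP8 window with its start at 201233463 held all 4, and 1 BIRC2 window held GAAANNGAA. XIAP windows held none of the 4. A match describes letters in a window and shows no binding.

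XAF1 (ENSG00000132530.17, chromosome 17, 6755447 to 6775647, plus strand, GRCh38) showed the widest range of the 9. WT had 1.13, 2.73 and 0 normalised counts in replicates 1, 2 and 3, at most 3 reads in a library. CRISPR Control had 4.32, 0 and 1.10, from 6 reads in all. KO 1 had 10.8, 20.3 and 15.9, and KO 2 had 395, 390.2 and 391. WT and CRISPR Control overlapped near 0, all KO 1 libraries lay above them, and all KO 2 libraries lay above KO 1.

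From 4 reads in the WT libraries, the ratio of the XAF1 mean to that of WT was 12.2 in KO 1, with a 95% counting interval from 4.32 to 45.3, and 305 in KO 2, from 116 to 1094. With 1 WT library left out, the ratio ranged from 8.11 to 27.7 in KO 1 and from 203 to 693 in KO 2, the highest values without WT replicate 2. Against CRISPR Control the ratio was 8.67 in KO 1, with an interval from 3.23 to 21.7, and 217 in KO 2, from 87.2 to 519.6. Of the 6 reads of CRISPR Control, 5 were in replicate 1. Without that library, 1 read was left and the ratios were 28.5 and 714, outside those intervals. KO 2 held 25.1 times the mean of KO 1. PRAL, a transcript awaiting experimental support on the opposite strand, covers 38.3% of the exon bases of XAF1 and averaged 2.92 normalised counts. Without strand its reads cannot be told from those of XAF1. FBXO39, a neighbour 0.568 kb away, averaged 0 in the other lines and 1.501 in KO 2, where XAF1 averaged 392. SLC13A5, on the other side, averaged 0.568 or less in every line.

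XIAP (ENSG00000101966.14, chromosome X, 123859712 to 123913972, plus strand) was instead highest in CRISPR Control. It had 3075, 4352 and 3866 normalised counts in WT and 5716, 6249 and 4929 in CRISPR Control. KO 1 had 4680.1, 4169 and 3992, and KO 2 had 4772, 4073 and 4326. The libraries of KO 1 overlapped those of WT and of KO 2, and CRISPR Control lay above all other libraries. The log2 difference from WT was 0.20 (SE 0.11) in KO 1, 0.23 in KO 2 and 0.59 in CRISPR Control. Without WT replicate 1, the lowest library, the KO values were 0.06 and 0.09. Its neighbours on both sides had the same highest line. THOC2, of the mRNA export complex, averaged 6424 in CRISPR Control and 4682 to 5264 elsewhere, and STAG2, of cohesin, 6639.9 and 4573 to 4864.

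Per length, the XAF1 level was therefore a higher share of the XIAP level in both KO lines than in WT and CRISPR Control. With counts divided by kb of merged exon, the XAF1 level was 0.0477% ± 0.0453 of the XIAP level in WT and 0.0470% ± 0.0559 in CRISPR Control (SD, n = 3). It was 0.535% ± 0.187 in KO 1 and 12.9% ± 0.941 in KO 2. XIAP RNA still exceeded XAF1 RNA in every library.

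BIRC2 and BIRC3 lie 7.808 kb apart on chromosome 11 and read in the same direction, but their levels had different orders. BIRC2 (ENSG00000110330.10, 102347211 to 102378670) had 6108, 6983 and 6085 normalised counts in WT and 6335, 6854 and 5412 in CRISPR Control. It had 7629, 8258 and 8289.6 in KO 1 and 7575, 6726 and 6605 in KO 2. All KO 1 libraries lay above all others, while KO 2, WT and CRISPR Control overlapped. On the log2 scale the difference from WT was 0.34 (SE 0.09) in KO 1, 0.12 in KO 2 and -0.05 in CRISPR Control.

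BIRC3 (ENSG00000023445.17, 102317484 to 102339403) separated all 4 lines without overlap. It had 3499, 4695 and 3908 in WT and 2413, 2307 and 1919.8 in CRISPR Control. KO 1 had 5307, 5317 and 5448, and KO 2 had 8785, 7195 and 6821. The log2 difference from WT was 0.42 (SE 0.11) in KO 1, 0.92 in KO 2 and -0.86 in CRISPR Control, below WT in CRISPR Control and above it in both KO lines. Per kb, BIRC3 stood at 0.380 ± 0.0308 of BIRC2 in WT and 0.216 ± 0.0135 in CRISPR Control, with 0.402 ± 0.0162 in KO 1 and 0.656 ± 0.0394 in KO 2 (SD, n = 3). The ratios of KO 1 and WT libraries overlapped, from 0.389 to 0.4198 and from 0.346 to 0.406. Of the outer neighbours, TMEM123, beside BIRC2, averaged 33477 in KO 1 and 15853 to 19817 in the other lines, and YAP1, beside BIRC3, was lowest in KO 2 at 9055 and highest in CRISPR Control at 13308.

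**Figure D2:**
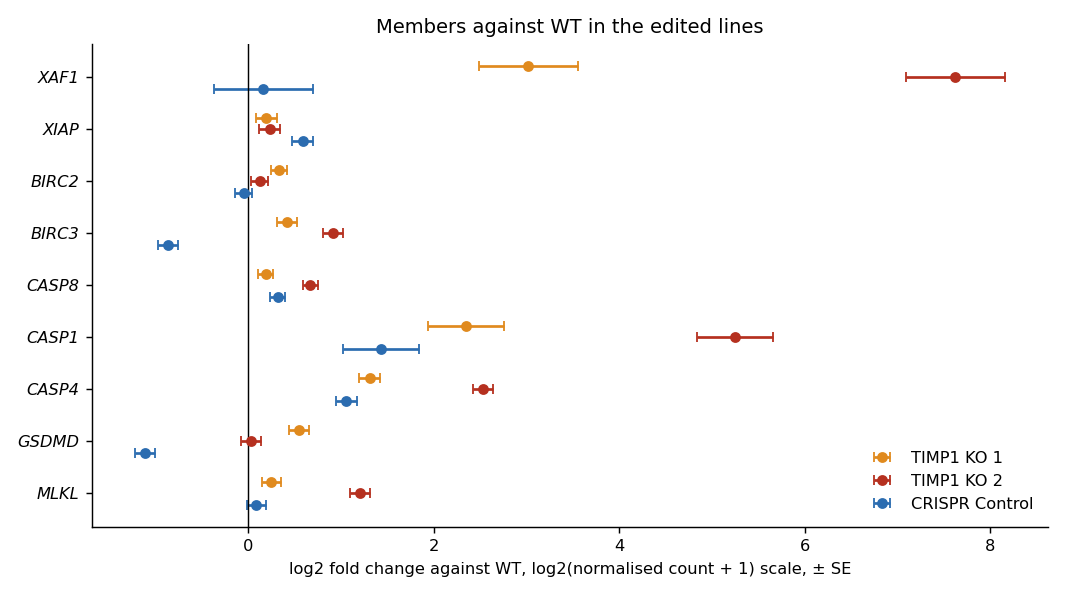
Log2 fold change of each member against WT in TIMP1 KO 1, TIMP1 KO 2 and CRISPR Control, on the log2(normalised count + 1) scale, with bars for the SE of limma. XAF1 (7.62) and CASP1 (5.25) lie farthest to the right in KO 2, and BIRC3 (-0.86) and GSDMD (-1.11) lie to the left of 0 in CRISPR Control.

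CASP8 (ENSG00000064012.24, chromosome 2, 201233443 to 201361836, plus strand), the initiator below death receptors, differed less. It had 891, 1028 and 963 normalised counts in WT and 1217, 1251 and 1131 in CRISPR Control. It had 1138, 1077 and 1073 in KO 1 and 1589.6, 1453 and 1542 in KO 2. KO 2 lay above every other library, WT lay lowest, and KO 1 and CRISPR Control overlapped. On the log2 scale the difference from WT was 0.67 (SE 0.08) in KO 2, 0.19 in KO 1 and 0.32 in CRISPR Control. CASP10, the related initiator caspase 4.015 kb away, averaged 26.9 in WT and 11.4 in CRISPR Control, with 36.4 in KO 1 and 89.6 in KO 2. By limma CASP10 was higher in KO 2 than in WT by 1.70 on the log2 scale (SE 0.27, adjusted p 3.17e-05). TRAK2, on the other side of CASP8, had 2543 in KO 2 and 2544 in WT.

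CASP1 (ENSG00000137752.25, chromosome 11, 105025397 to 105035250, minus strand), the inflammasome caspase, was scarce outside KO 2. It had 1.13, 8.18 and 3.81 normalised counts in WT and 13.0, 14.2 and 7.69 in CRISPR Control. It had 18.4, 29.3 and 20.3 in KO 1 and 165, 165 and 188 in KO 2. WT and CRISPR Control overlapped, KO 1 lay above both, and KO 2 lay above KO 1. From 14 reads in the WT libraries, the ratio of means to WT was 5.18 in KO 1, with a counting interval from 2.70 to 9.36, and 39.4 in KO 2, from 21.98 to 68.4. Without WT replicate 2, which held 9 of the 14 reads, the ratios were 9.16 and 69.8, the latter above its interval. Against CRISPR Control the ratio was 1.95 in KO 1, with an interval from 1.25 to 2.99, and 14.8 in KO 2, from 10.4 to 21.4. CRISPR Control also lay above WT, by a log2 difference of 1.43 (SE 0.41). Without WT replicate 1 the log2 difference from WT was 1.80 in KO 1 and 4.70 in KO 2, and without WT replicate 2 it was 2.86 and 5.76.

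CASP4 (ENSG00000196954.14, chromosome 11, 104942866 to 104969366, minus strand), the lipopolysaccharide sensor, was measured on more reads. It had 224, 228 and 222 normalised counts in WT and 485, 486 and 437 in CRISPR Control. It had 472, 572 and 648 in KO 1 and 1421, 1339.7 and 1170.4 in KO 2. WT was lowest and KO 2 highest without overlap, while CRISPR Control and KO 1 overlapped. The log2 difference from WT was 1.31 (SE 0.11) in KO 1, 2.53 in KO 2 and 1.06 in CRISPR Control. The line that kept TIMP1 protein sequence stood nearer to KO 1 than to WT, with a KO 1 to CRISPR Control log2 difference of 0.25.

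Both caspases belong to a gene cluster on the minus strand. CASP5, which lies between them, had 2 reads in all 12 libraries, CASP12 had 3, and CARD16, a CARD-only gene 6.076 kb from CASP1, had 16. CARD16 averaged 4.04 normalised counts in KO 2 and 0.655 or less in the other lines. CARD18, at the far end, was expressed in every line with means of 213 in WT and 225 in CRISPR Control, with 259 in KO 1 and 263 in KO 2. By limma it was higher in KO 2 than in WT by 0.31 on the log2 scale (SE 0.12, adjusted p 0.0376), a call that several alternative settings lost. CASP1, CASP5 and CARD genes are similar in sequence. How the authors' counting treated reads that fit more than 1 of them was not given in the sources used here.

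**Figure D3:**
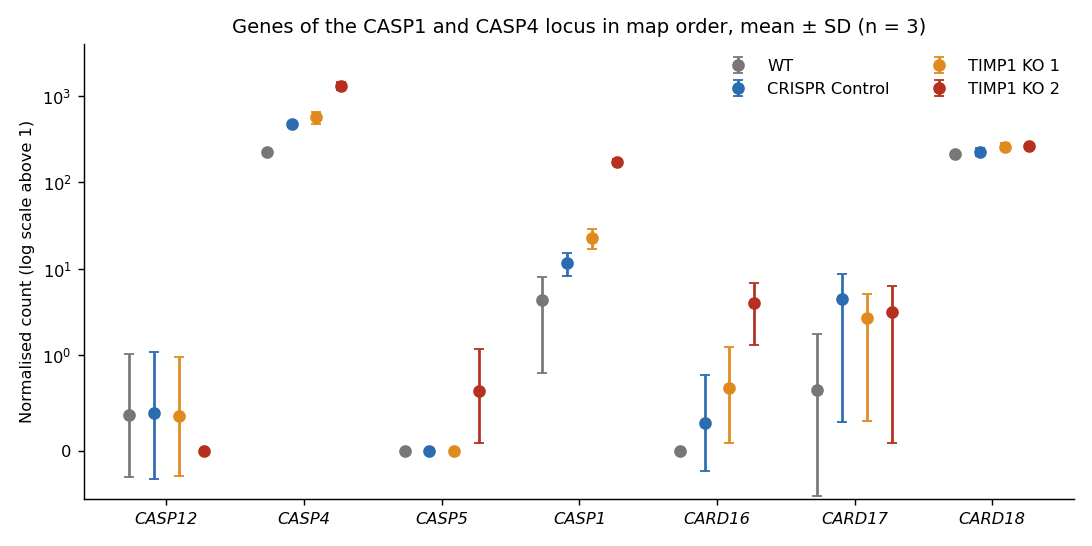
Line means of the genes of the CASP1 and CASP4 locus in map order, with SD (n = 3), in normalised counts on a scale that is logarithmic above 1. CASP4 and CASP1 step up from WT to TIMP1 KO 2, CARD18 stays between 213 and 263, and CASP12, CASP5, CARD16 and CARD17 average below 5.

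GSDMD (ENSG00000104518.11, chromosome 8, 143553207 to 143563062, plus strand), the substrate that both caspases cut, did not share their order. It had 889, 830.04 and 843 normalised counts in WT and 379, 399 and 409.9 in CRISPR Control. It had 1383, 1129.7 and 1254 in KO 1 and 757, 848 and 1037 in KO 2. KO 1 lay above every other library and CRISPR Control below, and KO 2 overlapped WT. On the log2 scale the difference from WT was 0.55 (SE 0.11) in KO 1, 0.03 in KO 2 and -1.11 in CRISPR Control. KO 2, highest for CASP1 and CASP4, thus held GSDMD at the WT level within the spread of its libraries. MROH6, a neighbour 3.13 kb away, was lowest in CRISPR Control at 286 and highest in KO 1 at 514. ZC3H3, on the other side, had its highest mean in CRISPR Control at 923, with 786 in WT, 743 in KO 1 and 524 in KO 2.

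MLKL (ENSG00000168404.13, chromosome 16, 74671855 to 74700960, minus strand), the effector of necroptosis, was high in KO 2 alone among these lines. It had 254, 300.01 and 254 normalised counts in WT and 287, 314 and 259 in CRISPR Control. It had 311, 331 and 319 in KO 1 and 646, 592 and 632 in KO 2. KO 2 lay above all others, while KO 1 overlapped CRISPR Control and CRISPR Control overlapped WT. The log2 difference from WT was 1.21 (SE 0.11) in KO 2, 0.25 in KO 1 and 0.09 in CRISPR Control. RIPK3, the kinase that activates MLKL, had 0 reads in all 12 libraries, and its upstream partner ZBP1 had 6. A count of 0 allows up to 3 reads in a library. MLKL RNA was thus measured in lines with no detected RIPK3 RNA. RFWD3, the neighbour 4.978 kb from MLKL, had its lowest mean in KO 2 at 1700.1 and its highest in WT at 3114, and FA2H, on the other side, averaged 2.75 or less in every line.

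**Figure D4:**
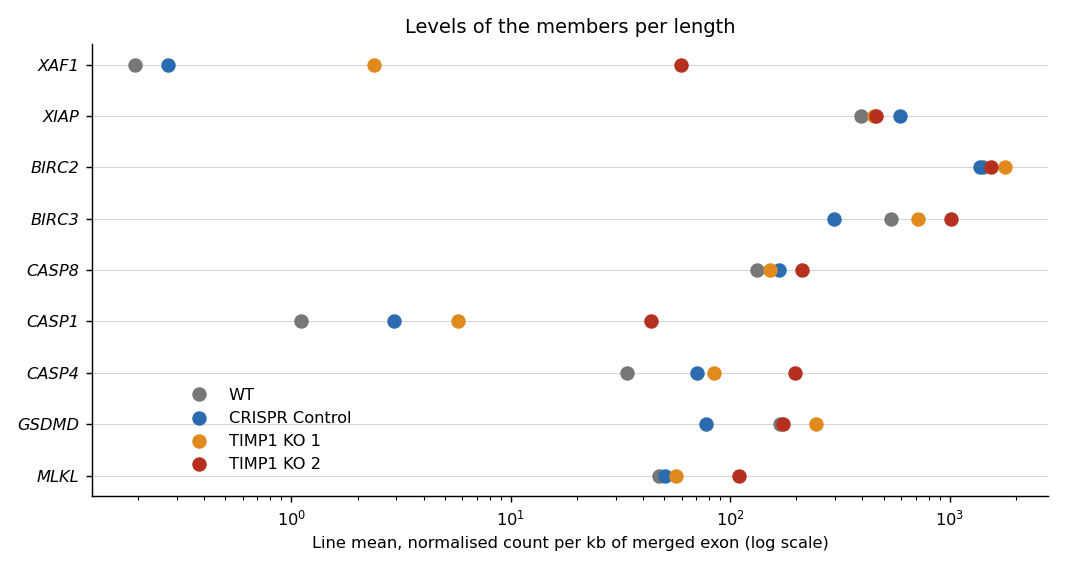
Line mean of each member in normalised counts per kb of merged exon, on a logarithmic axis. BIRC2 is the highest member in each line (1373 to 1784), and XAF1 (0.194) and CASP1 (1.10) are the lowest in WT.

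Set side by side per kb of merged exon, BIRC2 had the highest level of the 9 in every line, from 1373 in CRISPR Control to 1784 in KO 1. In WT it was followed by BIRC3 at 539 and XIAP at 395, GSDMD at 168 and CASP8 at 133. MLKL at 47.3 and CASP4 at 33.7 were lower, and CASP1 at 1.10 and XAF1 at 0.194 came last. In KO 2 CASP4, at 197, stood close to CASP8, at 211, and XAF1 at 59.3 stood above CASP1 at 43.5. As a ratio within libraries, CASP4 was 0.255 ± 0.0166 of CASP8 in WT and 0.932 ± 0.0945 in KO 2 (SD, n = 3). Merged exons join those of all annotated transcripts of a gene, expressed or not. Orders and ratios between genes per kb, here and above, therefore depend on the annotation.

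Calls over the table give the background for these differences. Of 15987 genes tested by limma, 35.5% were called between KO 1 and WT at an adjusted p under 0.05, 18% higher and 17.5% lower. Of the members, 6 of 9 were past it, all higher, with XIAP, CASP8 and MLKL not past it. Between KO 2 and WT 55% of genes were called, 27.1% higher and 27.9% lower. Here 6 of 9 members were past the threshold, all higher, and XIAP, BIRC2 and GSDMD were not. Between CRISPR Control and WT 53.4% were called, 27.2% higher and 26.3% lower. Of the members, 4 were higher (XIAP, CASP1, CASP4 and CASP8) and 2 were lower (BIRC3 and GSDMD). Because the members were selected on these contrasts, nothing is read from their counts.

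Against CRISPR Control, 63% of genes were called in KO 1 and 67.7% in KO 2. There, 4 members were higher and 1, XIAP, was lower in KO 1, and 7 were higher and XIAP lower in KO 2. Between KO 2 and KO 1, where 38.2% of genes were called, 6 members were higher in KO 2 and GSDMD was lower. Between the mean of the deficient and the mean of the competent lines, where 65.9% were called, 8 were higher and XIAP was not past the threshold. All 6 deficient libraries lay above all 6 competent libraries for XAF1, BIRC3 and CASP1, against 12.3% of all genes, and for no member below them, against 12.4%. The median log2 fold change of the 9 in KO 2 against WT was 0.92, beside -0.0084 for all genes tested. As the members were selected on these values, nothing is read from this median or from the libraries that did not overlap. When libraries were scaled to equal totals instead, 60.02% of the calls between KO 2 and WT were higher, not 49.3%, and between KO 2 and KO 1 65.6%, not 47.4%. The median log2 difference of all genes between KO 2 and CRISPR Control was then 0.11, and that of XIAP was -0.24 in place of -0.36.

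Genes of the same pathways that are no members were taken from 7 lists of 78 genes, written with earlier results of these data known. Of these, 62 had a mean normalised count of at least 10 and were tested. Between KO 1 and WT 27 were called, 14 higher and 13 lower, and 43 were called for KO 2, of which 27 were higher and 16 lower. Between CRISPR Control and WT, with TIMP1 unaltered in protein sequence, 38 were called, 23 higher and 15 lower. The shares called were 43.5% in KO 1, 69.4% in KO 2 and 61.3% in CRISPR Control. Of all genes tested, 35.5%, 55% and 53.4% were called in the same order. The counts by list below stand beside the same shares of all genes. The median log2 fold change over the 62 was 0.07 in KO 1, 0.18 in KO 2 and 0.07 in CRISPR Control. All adjusted p-values below are from limma over the 15987 genes. KO lines are compared with the same WT libraries, so their values are set side by side only.

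**Figure D5:**
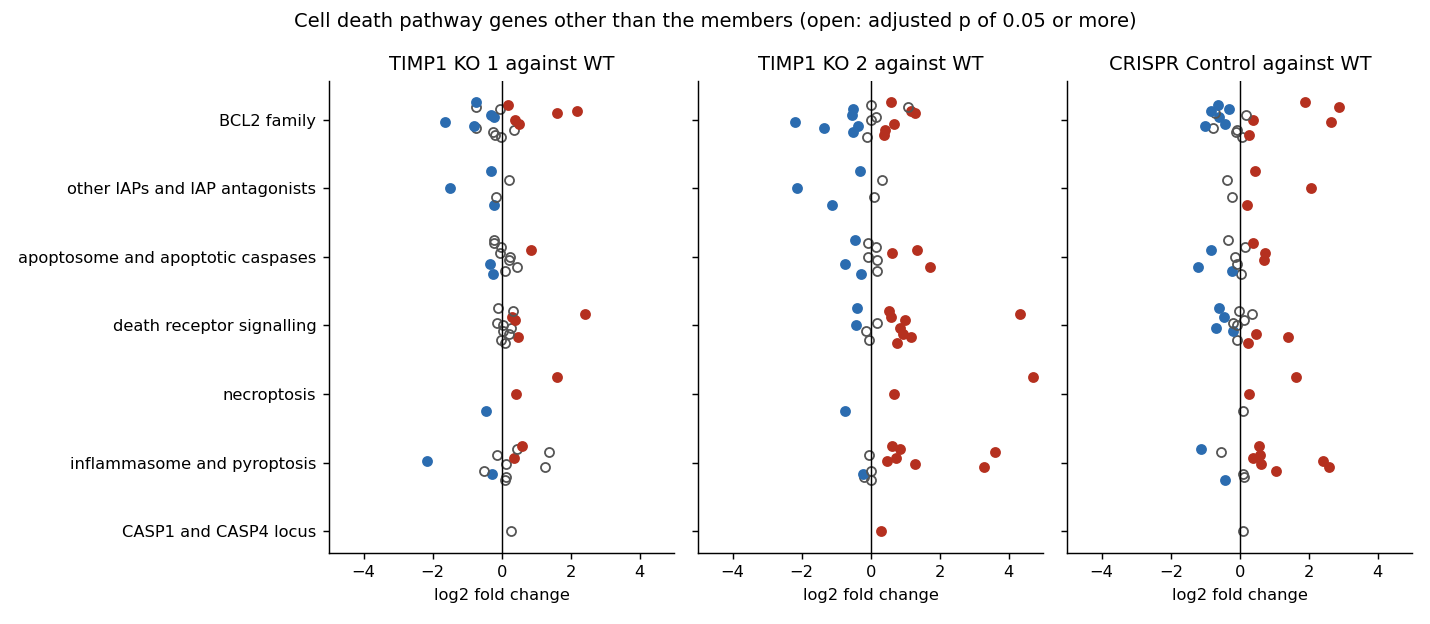
Log2 fold change against WT of the 62 tested pathway genes by list, in TIMP1 KO 1, TIMP1 KO 2 and CRISPR Control; filled points passed an adjusted p of 0.05 by limma (red higher, blue lower) and open points did not. In KO 2, 8 of 13 death receptor genes are red and 2 are blue, and in CRISPR Control 3 are red and 4 are blue. Of all genes tested, 55% were called in KO 2 and 53.4% in CRISPR Control against WT.

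In the death receptor list 8 of 13 genes rose and 2 fell in KO 2 against WT, while 4 rose and 0 fell in KO 1. TNFRSF10B, a receptor of the ligand TRAIL, had 1341 ± 32.1 normalised counts in WT and 1464 ± 117 in CRISPR Control, with 1754 ± 103 in KO 1 and 2692 ± 103 in KO 2 (SD, n = 3). It rose by 0.39 (adjusted p 0.000593) in KO 1 and by 1.00 (adjusted p 2.34e-09) in KO 2 on the log2 scale. TNFRSF1A, the main receptor of tumour necrosis factor, rose by 0.30 (adjusted p 0.00665) and 0.58 (adjusted p 5.16e-06) in the same lines and fell by 0.46 in CRISPR Control (adjusted p 7.95e-05). TNFSF10, which encodes TRAIL and is named here because its values were seen to be large, had means of 4.99 in WT and 7.68 in CRISPR Control, with 30.6 in KO 1 and 119 in KO 2. From 15 WT reads the KO 2 ratio was 23.9, with a counting interval from 14.3 to 43.2. FASLG, the ligand of FAS, had 1 read in all libraries. SHARPIN, a subunit of the linear ubiquitin ligase, fell by 0.42 on the log2 scale in KO 2 (adjusted p 0.000538). The other subunits in the list, named here beside it, had higher means in KO 2 than in WT. RBCK1 averaged 4466 in KO 2 and 2322 in WT, and RNF31 53.9 and 29.5.

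In the BCL2 family, whose members set the permeability of mitochondria, 5 of 17 rose and 5 fell in KO 1, and 6 rose and 6 fell in KO 2. BMF, a BH3-only promoter of apoptosis, had 446 ± 8.91 in WT and 249.6 ± 18.1 in CRISPR Control, with 2013 ± 34.3 in KO 1 and 993 ± 34.7 in KO 2. It rose by 2.17 in KO 1 (adjusted p 2.77e-13) and by 1.15 in KO 2 (adjusted p 1.11e-09), and fell by 0.84 in CRISPR Control (adjusted p 9.43e-08). BCL2L1, whose long form BCL-XL opposes apoptosis, rose by 0.50 and 0.67 in KO 1 and KO 2 and fell by 0.42 in CRISPR Control. BID, which links caspase-8 to mitochondria, fell by 0.31 in KO 1, a call that 3 alternative settings lost, and by 0.54 in KO 2. PMAIP1, the BH3-only gene NOXA, had 213 in WT and 795 in CRISPR Control, with 128 in KO 1 and 321 in KO 2. It fell by 0.73 in KO 1 (adjusted p 0.00021) and rose by 0.60 in KO 2 (adjusted p 0.000716).

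Of the other IAPs and their antagonists, 5 of 8 were tested. In KO 1 and in KO 2, 0 rose and 3 fell, and in CRISPR Control 3 rose and 0 fell. BIRC7, the melanoma IAP, had 75.7 ± 11.7 in WT and 319 ± 36.0 in CRISPR Control, with 26.3 ± 6.16 in KO 1 and 16.8 ± 4.96 in KO 2. BIRC5, survivin, which also serves in mitosis, had 9815, 11248, 8480.5 and 4532 in the same order. It fell by 0.21 in KO 1 (adjusted p 0.0361), a call that several alternative settings lost, and by 1.12 in KO 2 (adjusted p 5.72e-10). DIABLO, a mitochondrial antagonist of XIAP, differed from WT by 0.22 in KO 1 and 0.32 in KO 2, neither past the threshold. It was higher in deficient than competent lines by 0.45 (adjusted p 0.0011). The symbol DIABLO was carried by 2 entries, and these values are of the entry with the higher mean only. BIRC3 thus stood highest in KO 2, the line in which BIRC7 and BIRC5 were lowest.

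Of 11 genes of the apoptosome and apoptotic caspases, 1 rose and 2 fell in KO 1, and 3 rose and 3 fell in KO 2. CASP9, the initiator of the mitochondrial route, had 223 ± 20.1 in WT and 124 ± 10.6 in CRISPR Control, with 402 ± 7.52 in KO 1 and 568 ± 40.1 in KO 2. It rose by 0.85 (adjusted p 7.3e-06) and 1.35 (adjusted p 7.77e-09). APAF1, which assembles with it, differed by 0.09 and 0.19, neither past the threshold. CASP2 fell by 0.34 in KO 1 (adjusted p 0.00285) and 0.73 in KO 2 (adjusted p 3.74e-07). CYCS, cytochrome c, differed from WT by -0.23 and -0.07 without passing and rose by 0.39 in CRISPR Control (adjusted p 0.00244).

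In the inflammasome and pyroptosis list, 12 of 18 were tested, and 2 rose and 2 fell in KO 1, 7 rose and 1 fell in KO 2, and 7 rose and 2 fell in CRISPR Control. IL18, a cytokine that caspase-1 matures, had 241 ± 10.7 in WT and 1293 ± 193 in CRISPR Control, with 54.0 ± 11.7 in KO 1 and 333 ± 32.1 in KO 2. It fell by 2.16 in KO 1 (adjusted p 1.38e-09) and rose by 0.46 in KO 2 (adjusted p 0.0125), the latter not past the threshold with quantile normalization or without TIMP1 KO 2 replicate 1. IL1B, its partner among caspase-1 substrates, had 8 reads in all 12 libraries, and the DNA sensor AIM2 had 2. NLRP1, a sensor named after its values were seen, averaged 44.1 in KO 2 and 3.56 in WT, a ratio of 12.4 with a counting interval from 7.16 to 28.8. WT replicate 1 held 7 of the 10 WT reads, and without it the ratio was 31.9, above that interval. GSDME, the gasdermin cut by caspase-3, had 219 ± 20.4 in WT and 337 ± 14.8 in CRISPR Control, with 237 ± 23.3 in KO 1 and 537 ± 67.6 in KO 2, and rose by 1.29 in KO 2 (adjusted p 3.43e-08). NEK7, a partner of NLRP3, rose by 0.36 and 0.74 in the KO lines and by 0.38 in CRISPR Control (adjusted p 0.00272). NINJ1, which ruptures membranes late in lytic death, differed by -0.12 and -0.05 in the KO lines without passing and rose by 0.59 in CRISPR Control (adjusted p 0.000469).

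Of 5 necroptosis genes, 3 were tested. TICAM1, the adaptor of TLR3, rose by 0.41 in KO 1 (adjusted p 0.0031), by 0.68 in KO 2 (adjusted p 9.57e-06) and by 0.27 in CRISPR Control (adjusted p 0.0251), a call that 2 alternative settings lost. PGAM5, a mitochondrial phosphatase, fell by 0.45 and 0.73 in the KO lines. Of the 3 genes, 2 rose and 0 fell in CRISPR Control against WT, and 0 were higher in KO 1 than in CRISPR Control. TLR3, the receptor of double-stranded RNA in endosomes, named after its values were seen, averaged 1.30 in WT and 6.50 in CRISPR Control, with 6.52 in KO 1 and 58.3 in KO 2. From 4 WT reads the KO 2 ratio was 44.8, with a counting interval from 16.8 to 162.5.

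Genes with the pattern most like that of each member were ranked by Pearson's r over the 12 libraries, on log2 values, as a description. The libraries fall into 4 lines, so r mainly compares line means. Nearest to XAF1 were AC073316.2, GBP2, BCL2L13, TRIM14 and CORO2A, with r from 0.982 to 0.987. GBP2 averaged 3.96 in WT and 4.46 in CRISPR Control, with 19.3 in KO 1 and 165 in KO 2, and TRIM14 795, 789, 1211 and 2819. Nearest to MLKL was BST2 (r = 0.990), with 14.6 in WT and 28.6 in CRISPR Control, with 34.9 in KO 1 and 1711 in KO 2. Nearest to CASP1 was ARHGAP22 (r = 0.985), to CASP4 TM9SF2 (r = 0.985), to CASP8 TMEM87B (r = 0.996) and to GSDMD CHST7 (r = 0.994). STXBP5 was nearest to BIRC3 (r = 0.989), TMEM41B to XIAP (r = 0.970) and ZNF24 to BIRC2 (r = 0.958).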

How the data were processed

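RNA of 12 libraries, 3 biological replicates of each of 4 lines, was analysed from the deposited table. Per the study's methods, the authors trimmed reads with Cutadapt, used STAR to map them to GRCh38 and featureCounts to assign them to genes, and scaled the counts with DESeq2. The deposited values are thus a signal of counts divided by a size factor per library. The strand setting and annotation release were not given in the sources used here. Dividing by each library's step returned whole reads for 100% of positive values (tolerance 0.01), which gave the depth and the floor of 3 reads. Floors and counting intervals (95%) cover counting error only. A blank line and 4 columns of line means were not used. Of the gene identifiers, 99.1% matched the gene names given for this work. Coordinates and merged exons are from a GENCODE annotation of GRCh38.

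Genes with a mean of at least 10 (15987) were tested with limma 3.58.1 in R 4.3.3, with trend, on log2(normalised count + 1), which understates changes of low genes. A mean was fitted per line over all libraries, two-sided, with Benjamini-Hochberg adjustment at 0.05. The script was tested on simulated data. edgeR 4.0.16 and DESeq2 1.42.0 on recovered reads, other pseudocounts (0.5, 10), filters and scalings, each library left out, and a replicate block were alternatives. The members, lists and tests were chosen with earlier results of these data known. Named genes were TIMP1, the members, up to 2 highest and 2 lowest called genes of each list between deficient and competent lines with a mean of at least 50, genes most like a member, and neighbours. The labels name biological replicates but not separate cultures, so p-values measure the spread between these libraries.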

Additional observations from a re-analysis of the deposited data

Results flagged for a closer look

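Between KO 2 and KO 1, 38.2% of all genes tested were called in limma (adjusted p under 0.05 over all genes tested). The 21 pathway genes named by the rule were chosen for called changes between deficient and competent lines in these same libraries. Their count is therefore not read against that share. Of the 21, 14 differed between these knockout lines. Of these, GSDME and SHARPIN were not past the threshold in KO 1 against WT. On the log2 scale KO 2 was higher for IL18 by 2.62, PMAIP1 by 1.33, GSDME by 1.17, TNFRSF10B by 0.62, CASP9 by 0.49, NEK7 by 0.38, TNFRSF1A by 0.29 and TICAM1 by 0.28. The difference was -1.02 for BMF, -0.90 for BIRC5, -0.63 for BIRC7, -0.45 for SHARPIN, -0.39 for CASP2 and -0.29 for PGAM5. For IL18 and PMAIP1 the knockout lines lay on opposite sides of WT, each past the threshold. Groups of 3 libraries were too small for a check of single outlying libraries.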

How the results depend on the processing

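All 147 alternative counts of called pathway genes stayed within 1.5 times the main counts. KO 1 against WT ranged from 22 to 30 and KO 2 against WT from 33 to 45. No change of direction was found among members or named genes past the threshold in the main or the alternative fit. For differences past it in neither, such as GSDMD in KO 2 against WT, changes of direction were not counted. Values of members stayed within the spread of libraries in 1298 alternatives and moved beyond it in 25, mostly CASP1 and XAF1. A pseudocount of 10 gave 5.16 for XAF1 and 3.69 for CASP1 in KO 2 against WT (log2). The CASP1 value in KO 1 against WT was 1.80 without WT replicate 1 and 2.86 without WT replicate 2. Without WT replicate 2, 9 of 9 members passed in KO 1 against WT, not 6, while 5098 genes of the table were called, not 5682. With quantile normalization 8 members passed in KO 2 against WT, not 6, while 8763 genes were called, not 8791. With equal library totals or quantile normalization, 8 members were higher and 0 lower in KO 2 than in CRISPR Control. In that comparison 10777 and 10715 genes of the table were called, and 10828 in the main fit. In the main fit 7 members were higher and XIAP was lower there, a call lost with both scalings. Nothing is read from these counts of selected members. Ratios of means without each library of the reference line were added after seeing the data. Named genes lost a call in 45 alternatives, among them BIRC5 in KO 1 and in CRISPR Control against WT, BID in KO 1 and CARD18 in KO 2 against WT, SHARPIN in deficient against competent lines, and IL18 in KO 2 against WT (0.28 with quantile normalization and 0.38 without TIMP1 KO 2 replicate 1). Deviations of same-numbered libraries correlated from -0.13 to 0.16, with 2 of 18 pairs above 0.1, so the numbers do not pair the libraries. With a replicate block the pathway counts were 27 for KO 1 and 43 for KO 2 against WT. Genes under about 10 normalised counts are limited by depth.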
